A study of Homo sapiens with 6 samples.

Results

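The cyclins, G1 kinases and CDKN2A are a set of 10 genes of the cell cycle: the D cyclins CCND1, CCND2 and CCND3, the kinases CDK4 and CDK6, the inhibitor gene CDKN2A, the E cyclins CCNE1 and CCNE2, and the later cyclins CCNA2 and CCNB1. They were chosen by name, by matching the Ensembl identifiers of the gene table to symbols, and 10 of 10 were found among the 58174 genes of the table. The data are 6 RNA libraries labelled AGS, the name of an established line from a human gastric adenocarcinoma; marker levels that go against this label are given ahead of the members. The 3 si-NC libraries carry the genotype label wild type and received a negative control siRNA, and the 3 si-FTO libraries carry the genotype label FTO-/- while their titles and the study's methods describe an siRNA against FTO. FTO is an enzyme that removes the m6A mark from RNA, and the comparison asks how levels differed when it was depleted. Levels are the authors' mean TPM of each group, a share of transcripts scaled for gene length and for the library total. Values of single libraries were not used here, so no replicate check, spread or test stands behind any difference, and since TPM keeps no depth, the depth is unknown.

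Passage through G1 is driven by D cyclins bound to CDK4 or CDK6, which phosphorylate the retinoblastoma protein and release E2F factors. E cyclins and then cyclin A, with CDK2, carry cells into and through S phase, and cyclin B with CDK1 drives mitosis. CDKN2A encodes p16INK4a, which binds CDK4 and CDK6 and blocks their activity, and from another first exon p14ARF, which acts through MDM2 on p53; deletion or silencing of this gene and gain of cyclin genes are common in gastric and other carcinomas.

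The targeted gene was examined first. FTO stood at 33.1 TPM in si-NC against 7.27 TPM in si-FTO, 4.56-fold lower, with a log2 ratio of -2.05 on the scale of mean TPM + 1 that is used throughout. The direction was that of the group labels. Of all genes compared, 5.78% had a lower log2 ratio than FTO. FTO RNA remained in the libraries that carry the genotype label FTO-/-. Markers of the labelled cell type were then read. Of 10 epithelial markers, 6 had a mean TPM of at least 0.5 in a group, and the summed level of all 10 was 68.2 TPM in si-NC against 5087 TPM in si-FTO. KRT8, a keratin of simple epithelia, went from 10.8 to 3139 TPM, and was the most abundant of them in si-FTO. KRT18, its partner, went from 52.1 to 1851 TPM. EPCAM, a defining epithelial surface protein, was at 1.22 and 0.113 TPM, and KRT19 was listed at 0 in si-NC and at 0.13 TPM in si-FTO. CDH1, which encodes E-cadherin, was at 3.67 and 0.685 TPM. ELF3, an epithelial transcription factor, went from 0.115 to 93.3 TPM. The markers named here were picked from their lists after the values were seen. Of 10 gastric markers, 3 passed the same minimum, and the summed level of all 10 was 57.9 and 3.77 TPM. TFF1, GKN1, PGC and LIPF, products of stomach epithelium, were listed at 0 in both groups. GATA4, a factor of endodermal tissues and the most abundant gastric marker in si-NC, had 36.96 TPM there and was listed at 0 in si-FTO. GATA6, a related factor, went from 20.3 to 2.54 TPM. Secreted products of stomach epithelium were thus absent or near absent in both groups of libraries labelled AGS, the GATA factors were present in si-NC, and KRT8, KRT18 and ELF3 were high in si-FTO and far lower in si-NC.

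Markers of other cells were read in the same way. Of 7 mesenchymal markers, 5 passed the minimum, and the summed level of all 7 was 481 TPM in si-NC against 803 TPM in si-FTO, nearly all of it VIM, an intermediate filament protein, at 439.9 and 752 TPM. Of those 5, 2 were higher and 2 lower in si-FTO with log2 ratios beyond 1 in size. Among all genes at the same minimum, 11.4% were higher and 17% lower by that measure. COL1A1 at 10.3 and 36.4 TPM and PDGFRB at 0.37 and 5.34 TPM were higher. FN1 at 27.7 and 8.74 TPM and COL3A1 at 2.18 and 0.361 TPM were lower. Leukocyte markers summed to 3.29 and 1.17 TPM over 5 genes, and PTPRC, which marks all leukocytes, was listed at 0 in both groups. Of 4 endothelial markers, 3 were found, PECAM1 not being matched, and 1 passed the minimum. CDH5 was at 0.00827 TPM in si-NC against 40.9 TPM in si-FTO, and KDR at 0.401 TPM and listed at 0. VWF was near 0 in both groups, at 0.00493 and 0.0537 TPM. The part of these marker differences in the values of the cell cycle genes was not tested. Whether the libraries of both groups come from the same cell line was not tested either, and in each ratio of si-FTO over si-NC below, a difference between cell populations and the depletion of FTO cannot be told apart. In bulk RNA, fewer cells that express a gene and less RNA of it in each cell cannot be told apart.

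Across the table, 20493 genes reached a mean of 0.5 TPM in either group and were compared. A gene was counted as past the fold when its log2 ratio was at least 1 in size, and 10 of 10 members were compared. Of the 10, 2 were lower in si-FTO past the fold, CCND2 and CDK6, and 0 were higher. Over all genes compared, 17% were lower, 11.4% were higher and 28.5% were past the fold in either direction, so the share among the members is near the background. Taking each member in the group where it was higher, the lowest mean was 13.3 TPM, that of CCNE2 in si-FTO. Among the 12967 genes with at least 5 TPM in a group the shares were 17.4% lower, 13.3% higher and 30.7% in either direction. The median log2 ratio was -0.14 over the members and -0.20 over all genes compared. Median-ratio scaling of the group means moved the median over all genes by 0.17 and quantile normalization by 0.14, so each member's ratio is also given relative to that median. Counted without the fold, 5 members had the higher mean in si-FTO (CCNB1, CCND1, CCNE1, CCNE2 and CDKN2A) and 5 in si-NC (CCNA2, CCND2, CCND3, CDK4 and CDK6). An even split is not the background, since 60.88% of all genes compared had a lower log2 ratio than CCNE1, which stood at 0.02. Means of 6 members lay less than 1.5-fold apart, a share that was not counted over all genes.

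**Figure D1:**
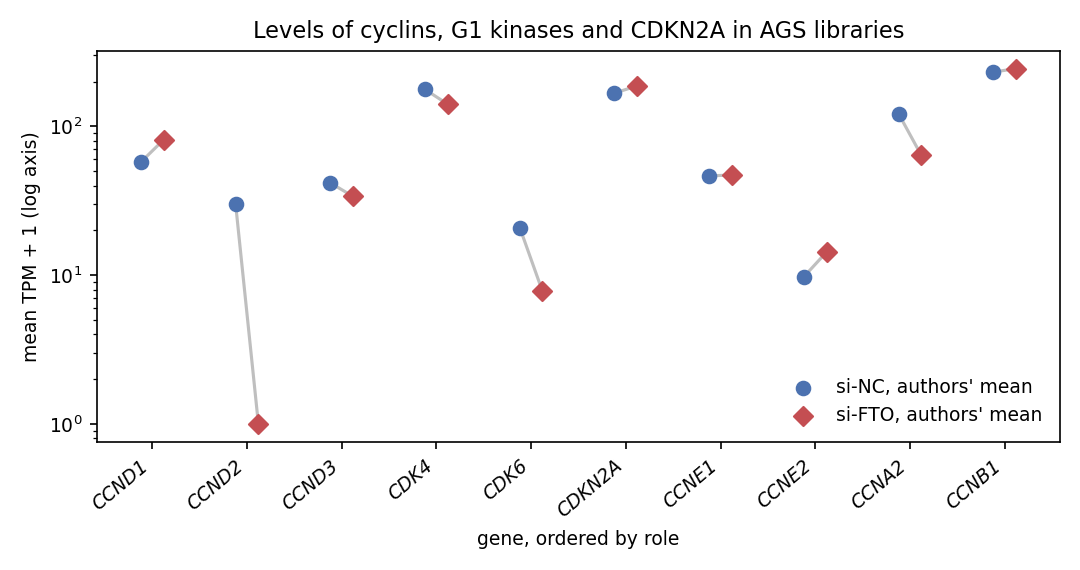
The authors' mean TPM + 1 of each member, on a log axis, in si-NC (circles) and si-FTO (diamonds), with genes ordered by role and a grey line joining the groups. CCND2 went from 28.9 TPM to a value listed at 0, drawn at 1 on this axis, and CDK6 from 19.9 to 6.78 TPM, while the points of CCNE1, CCNB1 and CDKN2A lie nearly level.

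In the order of levels, CCNB1, CCNE1, CCND3 and CDK6 held the same place in both groups, and the other members changed place. In si-NC the order from high to low was CCNB1, CDK4, CDKN2A, CCNA2, CCND1, CCNE1, CCND3, CCND2, CDK6 and CCNE2. In si-FTO it was CCNB1, CDKN2A, CDK4, CCND1, CCNA2, CCNE1, CCND3, CCNE2, CDK6 and CCND2. With no spread between libraries, which neighbours in these orders differ beyond error is unknown. CCNB1 lay above 97.2% of the genes compared in both groups, and CCNE2, the lowest in si-NC, lay above 50.4% of them.

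Among the D cyclins, which sense growth signals, CCND2 differed most. CCND2 (ENSG00000118971), at chr12:4378937-4414519 on the + strand of GRCh37, averaged 28.9 TPM in si-NC but was listed at 0 in si-FTO, so no fold is given. Genes that pass from a clear level to 0 were few. Of the 6955 genes that reached 20 TPM in si-NC, 77, CCND2 among them, had a listed value of 0 in si-FTO, which is 1.11%. In the other direction, 38 of the 6714 genes that reached 20 TPM in si-FTO had 0 listed for si-NC. The cut of 20 TPM was not part of the plan. Of 35 genes that every cell uses, a list added after the values were seen, 0 were listed at 0 in either group. The lowest mean among them was 16.9 TPM. Such genes are abundant in any cell, so this outcome was fixed in advance and does not bear on the 0 of CCND2. CCND2-AS1, which overlaps the start of CCND2 on the opposite strand, was listed at 0 in both groups, as was the pseudogene CCND2P1.

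CCND1 (ENSG00000110092), a cyclin often gained in carcinomas, lies at chr11:69455924-69469242 on the + strand and was the most abundant D cyclin in both groups. Its mean was 56.6 TPM in si-NC against 80.3 TPM in si-FTO, with a log2 ratio of 0.50 and of 0.70 relative to the median gene. LTO1, which overlaps the end of CCND1 on the opposite strand, had 24.9 and 26.5 TPM. CCND3 (ENSG00000112576), the D cyclin best known from lymphoid cells, at chr6:41902672-42018095 on the - strand, had 40.7 TPM in si-NC against 32.8 TPM in si-FTO, with a log2 ratio of -0.30 and of -0.10 relative to the median gene. Neither was past the fold.

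The composition of the D cyclin pool differed more than its sum. The summed level of the 3 genes was 126 TPM in si-NC against 113 TPM in si-FTO, a ratio of 0.896. CCND1 made up 44.8% of the sum in si-NC against 71.0% in si-FTO. CCND3 made up 32.3% and 29.0%, and CCND2 22.9% in si-NC. The ratio of CCND1 to CCND3 was 1.39 in si-NC against 2.45 in si-FTO, a quantity that scaling a whole group by a factor does not alter.

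The G1 kinases were both lower in si-FTO, and CDK6 was past the fold. CDK6 (ENSG00000105810), at chr7:92234235-92465887 on the - strand of GRCh37, had 19.9 TPM in si-NC against 6.78 TPM in si-FTO, 2.93-fold lower, with a log2 ratio of -1.42 and of -1.22 relative to the median gene. Of all genes compared, 10.2% had a lower log2 ratio. CDK6-AS1, an antisense transcript at its start, was at 0.325 TPM in si-NC but listed at 0 in si-FTO. CDK4 (ENSG00000135446), at chr12:58141510-58149796 on the - strand, had 176 TPM in si-NC against 139.6 TPM in si-FTO, with a log2 ratio of -0.33 and of -0.13 relative to the median gene. A neighbour overlaps each end of CDK4 on the opposite strand, TSPAN31 with 19.4 and 14.7 TPM and MARCHF9 with 28.0 and 9.20 TPM. Whether counting used strand is not given in the sources used here, so reads of overlapping antisense genes cannot be told apart from those of the members.

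CDK4 supplied most of the G1 kinase transcripts in both groups. The summed level of the pair was 195.7 TPM in si-NC against 146 TPM in si-FTO, a ratio of 0.748. CDK6 made up 10.2% of it in si-NC against 4.63% in si-FTO. CDK4 exceeded CDK6 by a ratio of 8.84 in si-NC against 20.6 in si-FTO. The sum of the D cyclins over the sum of the kinases was 0.645 and 0.772.

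**Figure D2:**
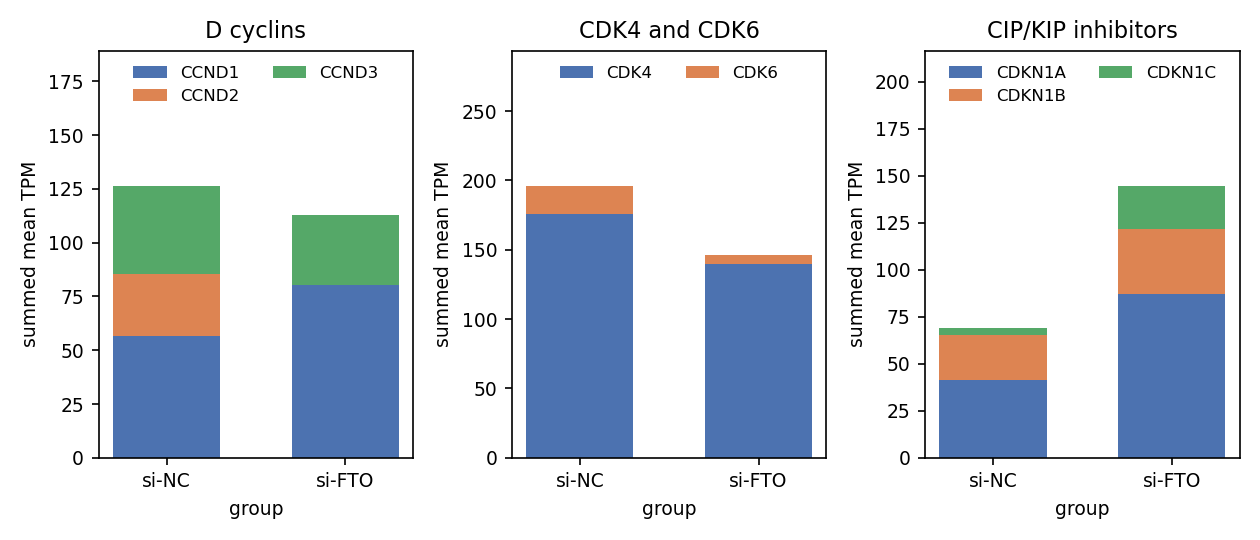
Stacked bars of the authors' mean TPM in si-NC and si-FTO for the D cyclins, for CDK4 with CDK6, and for the CIP/KIP inhibitors, each panel with its own axis from 0. The D cyclin sums were 126 and 113 TPM with no CCND2 listed in si-FTO, the kinase sums 195.7 and 146 TPM, and the CIP/KIP sums 69.0 and 144 TPM.

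Because CDK6 was the member past the fold with entries among the RefSeq promoters, the 250 bases before each of its 2 start sites are shown (GRCh38.p14, - strand, chr7:92836574-92836823 and chr7:92833960-92834209). Capitals mark GGGCGG, the word bound by SP1 factors, on either strand.
CDK6 start 1: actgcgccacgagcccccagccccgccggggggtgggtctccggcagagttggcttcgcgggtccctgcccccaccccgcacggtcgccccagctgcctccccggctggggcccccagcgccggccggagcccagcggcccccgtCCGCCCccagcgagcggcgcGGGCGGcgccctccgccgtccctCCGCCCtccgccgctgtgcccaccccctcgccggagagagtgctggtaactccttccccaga
CDK6 start 2: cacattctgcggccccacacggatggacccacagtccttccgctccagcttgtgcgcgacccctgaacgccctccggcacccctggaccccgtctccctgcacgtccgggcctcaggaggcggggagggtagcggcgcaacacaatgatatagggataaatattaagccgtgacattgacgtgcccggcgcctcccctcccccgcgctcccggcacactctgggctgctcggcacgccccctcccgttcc
The first window holds 3 matches and has 80.0% G and C, and the second holds 0 and has 67.6%, beside a median of 58.0% over all promoter windows of that length. Of all 35116 windows, 42.6% hold GGGCGG. The other words sought on both strands were TTTCCCGC, TTTGGCGC and TTTCGCGC for E2F factors, TTTGAA for the cell cycle homology region (CHR) of late cell cycle genes, and CCAAT. None of these stands in either window. The window of CDK4 holds GGGCGG 3 times and none of the other words, so both kinase genes hold this word in a window. Gene totals do not separate start sites.

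CDKN2A (ENSG00000147889), the inhibitor of both kinases, at chr9:21967751-21995300 on the - strand of GRCh37, was among the most abundant members in both groups. It had 166 TPM in si-NC against 186 TPM in si-FTO, with a log2 ratio of 0.16 and of 0.36 relative to the median gene, not past the fold. It lay above 95.9% of the genes compared in si-NC and above 96.1% in si-FTO. The ratio of CDKN2A to the sum of CDK4 and CDK6 was 0.85 in si-NC against 1.27 in si-FTO. These are ratios of transcripts, not of the proteins that bind each other. CDKN2A transcripts of p16INK4a and p14ARF are summed in the gene total and cannot be told apart. The antisense gene CDKN2B-AS1, also called ANRIL, had 3.08 and 6.55 TPM.

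The windows before the 2 start sites of CDKN2A are shown because they serve these different products, the first further upstream in the direction of transcription (GRCh38.p14, - strand, chr9:21995325-21995574 and chr9:21974858-21975107). Capitals again mark GGGCGG on either strand.
CDKN2A start 1: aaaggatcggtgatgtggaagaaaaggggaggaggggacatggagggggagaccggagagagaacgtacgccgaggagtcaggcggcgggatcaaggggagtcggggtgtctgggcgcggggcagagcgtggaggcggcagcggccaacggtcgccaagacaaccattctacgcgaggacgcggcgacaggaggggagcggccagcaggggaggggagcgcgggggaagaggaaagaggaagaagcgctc
CDKN2A start 2: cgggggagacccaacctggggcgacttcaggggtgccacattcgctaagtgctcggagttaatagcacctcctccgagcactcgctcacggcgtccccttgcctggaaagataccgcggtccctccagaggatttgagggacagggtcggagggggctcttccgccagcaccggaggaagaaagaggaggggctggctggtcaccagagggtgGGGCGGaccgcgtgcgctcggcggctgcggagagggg
The first window holds 0 matches and the second 1, which begins 37 bases before the start, and both have 66.8% G and C. No match to the E2F words, TTTGAA or CCAAT stands in them.

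The other CDK inhibitors were read beside CDKN2A. Of 6 compared, 2 were higher past the fold and 0 lower, beside 11.4% and 17% of all genes, and the median log2 ratio was 0.23 beside -0.20. CDKN1C, which encodes p57, went from 3.89 to 22.9 TPM, a log2 ratio of 2.29. CDKN1A, which encodes p21 and is a target of p53, went from 41.1 to 87.1 TPM, a log2 ratio of 1.06. CDKN1B, which encodes p27, had 23.98 and 34.2 TPM, a log2 ratio of 0.50. The sum of the INK4 genes, to which CDKN2A belongs, was 249.9 TPM in si-NC against 254 TPM in si-FTO, of which CDKN2A made up 66.6% and 73.1%. CDKN2C, the most abundant other inhibitor in si-NC, had 68.5 and 54.0 TPM. CDKN2B, next to CDKN2A on the chromosome, had 6.59 and 6.05 TPM. The CIP/KIP genes summed to 69.0 TPM in si-NC against 144 TPM in si-FTO, a ratio of 2.09, and the ratio of the CIP/KIP sum to the INK4 sum was 0.276 and 0.568.

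The E cyclins, partners of CDK2 at the start of S phase, were not past the fold. CCNE1 (ENSG00000105173), at chr19:30302898-30315219 on the + strand of GRCh37, had 45.5 TPM in si-NC against 46.1 TPM in si-FTO, with a log2 ratio of 0.02 and of 0.22 relative to the median gene. CCNE2 (ENSG00000175305) had 8.76 TPM in si-NC against 13.3 TPM in si-FTO, 1.52-fold higher, with a log2 ratio of 0.55 and of 0.76 relative to the median gene. INTS8 and NDUFAF6 overlap the ends of CCNE2 on the opposite strand, with 58.3 and 24.2 TPM for INTS8 and 22.0 and 24.5 TPM for NDUFAF6, both above CCNE2 in level. The sum of the pair was 54.2 TPM in si-NC against 59.4 TPM in si-FTO, and CCNE1 made up 83.8% and 77.6% of it. CDK2, their kinase, had 73.8 and 118 TPM, and its ratio to the summed E cyclins was 1.36 and 1.99. The window before the start of CCNE1 is the richest of those read in G and C, at 81.2%, and holds GGGCGG 7 times.

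CCNA2 and CCNB1, the cyclins of S phase and mitosis, had unlike ratios. CCNA2 (ENSG00000145386), at chr4:122737599-122745038 on the - strand of GRCh37, had 121 TPM in si-NC against 62.9 TPM in si-FTO, 1.92-fold lower, with a log2 ratio of -0.93 and of -0.73 relative to the median gene. It lay just inside the fold. CCNB1 (ENSG00000134057), at chr5:68462962-68474072 on the + strand, had 230.2 TPM in si-NC against 243 TPM in si-FTO, with a log2 ratio of 0.08 and of 0.28 relative to the median gene. The ratio of CCNB1 to CCNA2 was 1.91 in si-NC against 3.87 in si-FTO. EXOSC9, an exosome subunit gene whose end overlaps that of CCNA2 on the opposite strand, had 73.5 and 40.2 TPM, a log2 ratio of -0.86.

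The promoter windows of this pair are shown for what they share (GRCh38.p14, chr4:121823884-121824133 on the - strand and chr5:69166900-69167149 on the + strand). Capitals mark CCAAT, the word bound by NF-Y, and GGGCGG, each on either strand.
CCNA2: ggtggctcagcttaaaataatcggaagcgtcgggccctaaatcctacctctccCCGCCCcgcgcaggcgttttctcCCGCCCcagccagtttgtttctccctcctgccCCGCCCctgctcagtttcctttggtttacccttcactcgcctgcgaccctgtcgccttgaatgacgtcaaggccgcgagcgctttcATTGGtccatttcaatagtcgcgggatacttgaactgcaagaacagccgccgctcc
CCNB1: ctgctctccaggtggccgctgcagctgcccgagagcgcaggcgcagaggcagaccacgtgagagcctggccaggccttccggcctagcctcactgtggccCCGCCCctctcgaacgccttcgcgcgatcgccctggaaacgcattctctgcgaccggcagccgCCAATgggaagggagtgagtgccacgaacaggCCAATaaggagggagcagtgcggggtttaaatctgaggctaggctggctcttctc
CCAAT stands once in the CCNA2 window, 56 bases before the start, and at 2 places in the CCNB1 window, 87 and 55 bases before it. CCAAT is found in 32% of all promoter windows. The word GGGCGG stands 3 times in the first and 1 time in the second. TTTGAA, which 13.3% of all windows hold, is in neither window. The 3 E2F words are in neither; TTTCCCGC is found in 1.39%, TTTGGCGC in 0.55% and TTTCGCGC in 0.439% of all windows, and 2.32% hold at least 1 of them. Only exact words were sought, and only before the start, so a missing word does not show that a CHR or E2F site is missing. The CCNA2 window holds cttgaa, which differs from TTTGAA in its first base. The 3 windows of CCND3 hold GGGCGG 5, 2 and 0 times and CCAAT 0, 1 and 1 times. No matches of different words overlap in the members' windows. In all, RefSeq promoter windows of 7 of 10 members were read, 11 windows together. Sequences of CCND1, CCND2 and CCNE2 were not used here.

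The rest of the cyclin family was read next. Of 21 other cyclins compared of 22, 2 were higher past the fold and 2 lower, beside 11.4% and 17% of all genes, and the median log2 ratio was -0.32 beside -0.20. The lower count was 4 with a pseudocount of 0.1, where 5147 of the 20493 genes compared were lower. It was 1 under median-ratio scaling, where 2885 of all genes were lower. CCNG1, a target of p53 and the most abundant in si-NC, went from 207 to 71.7 TPM, a log2 ratio of -1.52. CCNC, the cyclin of the Mediator kinase module, went from 61.2 to 28.2 TPM. CCNO, known from multiciliated cells, went from 7.25 to 19.0 TPM. CCNA1, the paralogue of CCNA2 best known from the testis, went from 0.0397 to 4.09 TPM; it was named after its values were seen. CCNB2, the paralogue of CCNB1 and the most abundant in si-FTO, had 104 and 125 TPM, a log2 ratio of 0.26.

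Of 18 other cyclin-dependent kinases compared of 19, 1 was higher past the fold and 2 were lower, beside 11.4% and 17% of all genes. The median log2 ratio was -0.05, and it was positive under median-ratio scaling and quantile normalization. CDK5, an atypical kinase activated by p35 in neurons, went from 121 to 46.1 TPM, a log2 ratio of -1.37. CDK18 went from 16.2 to 45.1 TPM, a log2 ratio of 1.42. CDK20, named after its values were seen, went from 9.02 to 3.87 TPM. CDK16 was the most abundant in both groups, at 365 and 328 TPM, and CDK1, the partner of CCNB1, had 73.9 and 90.6 TPM.

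Downstream of the G1 kinases, 0 of 13 genes of the RB and E2F-DP list were higher past the fold and 1 was lower, against 11.4% and 17% of all genes. The median log2 ratio was -0.05, positive under median-ratio scaling and quantile normalization. E2F5 went from 34.9 to 12.8 TPM, a log2 ratio of -1.38. TFDP1, the DP partner of E2F factors and the most abundant of the list, went from 98.1 to 196 TPM, a log2 ratio of 0.99, just inside the fold. RB1 had 17.9 and 26.8 TPM.

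The list of kinase activators, brakes and cyclin turnover held 18 genes, 3 of them higher past the fold and 1 lower (all genes, 11.4% and 17%), with a median log2 ratio of -0.20 that turned positive under median-ratio scaling. FBXO4, an F-box protein described for cyclin D1, went from 5.80 to 19.4 TPM, a log2 ratio of 1.58. SKP1, a core subunit of SCF ligases, went from 120.4 to 335 TPM, a log2 ratio of 1.47. The phosphatases that activate CDKs split, with CDC25B at 76.8 and 156 TPM, a log2 ratio of 1.02, and CDC25A at 103 and 44.8 TPM, a log2 ratio of -1.18. CKS2, a small CDK-binding subunit, was the most abundant of the list, at 406 and 397 TPM.

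Genes that E2F factors turn on at the G1/S boundary were 20, with 0 higher past the fold and 3 lower, where 11.4% and 17% of all genes were. Their median log2 ratio was 0.03, negative under quantile normalization. GINS1 and CDC45, parts of the replicative helicase, had log2 ratios of -1.32 and -1.01. MCM7, another helicase subunit and the most abundant in si-NC, had 355 and 334 TPM. PCNA, the sliding clamp and the most abundant in si-FTO, had 295 and 449 TPM.

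Of 20 mitotic genes that peak with CCNB1, 1 was higher past the fold and 0 were lower, with 11.4% and 17% over all genes. Their median log2 ratio was 0.00, and it was positive under median-ratio scaling. FOXM1, a transcription factor of this programme, went from 50.6 to 108 TPM, a log2 ratio of 1.07. MYBL2, another such factor and the most abundant in si-NC, had 371 and 214 TPM, a log2 ratio of -0.79. UBE2C, the most abundant in si-FTO, had 345 and 330.1 TPM. CCNB1 lay near the median of this list, and CCNA2 below it.

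Of the 8 cell cycle lists, that of 12 growth signal genes upstream of cyclin D had the largest share past the fold. Past the fold, 5 were higher and 4 were lower, together 9 of 12, beside 28.5% of all genes. The lists were chosen with earlier results of these data known, so this share and its rank are descriptions and no evidence of enrichment. Their median log2 ratio was -0.04, positive under median-ratio scaling and with a minimum of 5 TPM. FOS, a subunit of the AP-1 factor, went from 25.0 to 888 TPM, a log2 ratio of 5.09. JUN, its partner, went from 190.5 to 7.55 TPM, a log2 ratio of -4.49. EGFR went from 6.46 to 50.1 TPM and STAT3 from 31.8 to 118 TPM, with log2 ratios of 2.78 and 1.86. LEF1, which acts with beta-catenin, went from 28.4 to 4.18 TPM, a log2 ratio of -2.51. CTNNB1, which encodes beta-catenin and was the most abundant in si-NC, had 321 and 197.5 TPM. The remaining genes past the fold, named after their values were seen, were MYC and EGR1, both higher, and TCF7 and MYCN, both lower. Whether any of these bears on the level of CCND1, CCND2 or CCND3 was not tested.

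**Figure D3:**
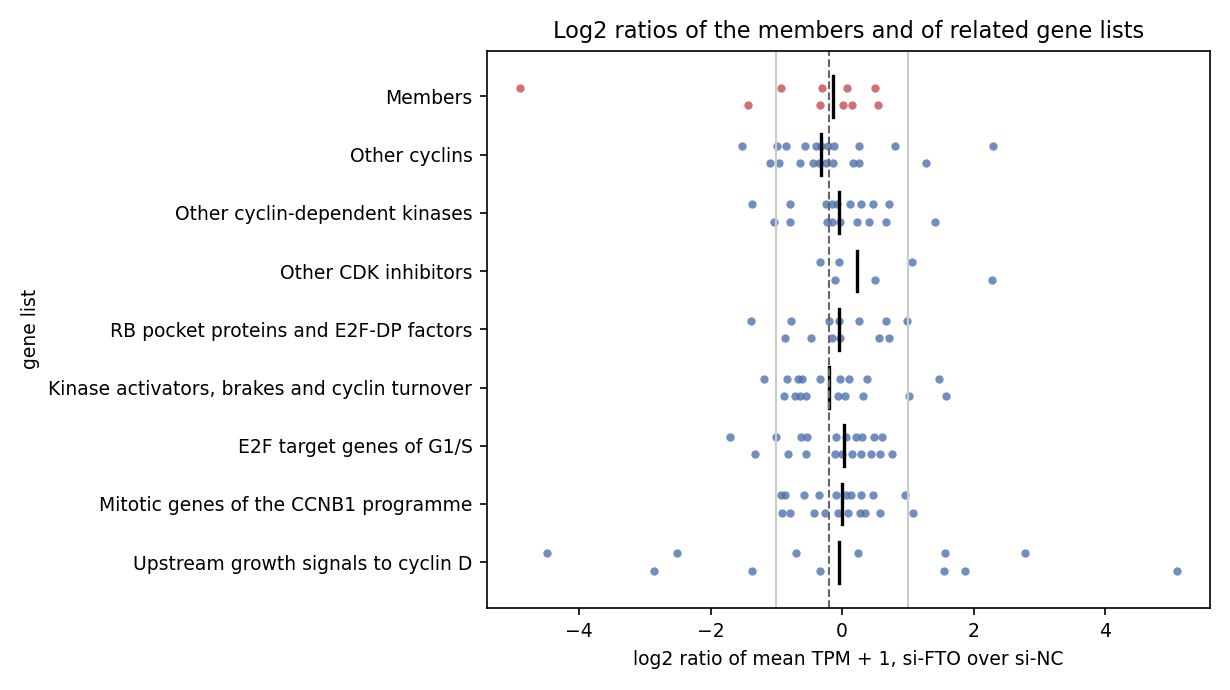
Log2 ratio of mean TPM + 1, si-FTO over si-NC, for the members (red) and for the compared genes of 8 lists (blue), with a black bar at each median, a dashed line at the median of all genes compared (-0.20) and grey lines at the fold threshold. The list medians lie between -0.32 and 0.23, and the growth signal list is spread from -4.49 to 5.09. CCND2, listed at 0 in si-FTO, is the leftmost red point, drawn with the pseudocount; the other members lie between -1.42 and 0.55.

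Genes beside the members on the chromosome were read to place each level in its surroundings, left meaning the lower coordinate on GRCh37. Around CCND2, 6 of 10 neighbouring protein-coding genes were compared, 2 of them lower past the fold and 0 higher, beside 17% and 11.4% of all genes. CRACR2A had 10.8 TPM in si-NC and PARP11, the nearest on the left, 6.52 TPM, and both were listed at 0 in si-FTO. TIGAR, the nearest with a value on the right, had 19.5 and 16.1 TPM, a log2 ratio of -0.26. Further out, TSPAN9 and TEAD4 to the left had log2 ratios of -0.99 and -0.22, and C12orf4 to the right had -0.66. All 6 were lower in si-FTO, with a median of -0.82 beside -0.20 over all genes, and TIGAR and TEAD4 lay near the latter. A lower mean is the common case, since 60.88% of all genes compared had a lower log2 ratio than CCNE1 at 0.02.

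Around CDK6, 6 neighbours were compared and 0 were lower past the fold, beside 17% of all genes. FAM133B, the nearest on the left, had 9.62 and 9.83 TPM, a log2 ratio of 0.03. SAMD9, the nearest on the right, went from 0.146 to 2.13 TPM, the 1 neighbour higher past the fold, beside 11.4% of all genes. The log2 ratio of CDK6 stood at -1.42 beside a median of -0.01 over these neighbours. Of the 7 neighbours of CCNA2 compared, 4 were lower past the fold, with a median of -1.28, beside 17% lower and a median of -0.20 over all genes. BBS7, the nearest on its right, went from 29.1 to 9.25 TPM, and QRFPR, a receptor gene, from 16.4 TPM to a value listed at 0.

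The nearest neighbours of the other members had log2 ratios of mixed size. MTAP, beside CDKN2A and often lost with it in tumours, had 16.9 TPM in both groups. Of the 4 neighbours of CDKN2A compared, 2 on its right were lower past the fold, TUSC1 at 22.0 and 1.36 TPM and ELAVL2 at 8.63 and 0.0356 TPM, and the median over the 4 was -1.66, beside 17% lower and a median of -0.20 over all genes. URI1, to the right of CCNE1, had 45.7 and 45.9 TPM, and C19orf12 to the left 21.0 and 12.9 TPM. SLC30A5 and CENPH, on either side of CCNB1, had log2 ratios of -0.12 and -0.98. BYSL and TAF8, on either side of CCND3, had -1.03 and -0.06, and MYEOV, to the left of CCND1, had 1.75 with a level of 0.45 TPM in si-NC against 3.89 TPM in si-FTO. Over the 69 neighbours compared, 4 were higher past the fold and 16 lower, with a median log2 ratio of -0.28, beside 11.4% higher, 17% lower and a median of -0.20 over all genes compared.

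**Figure D4:**
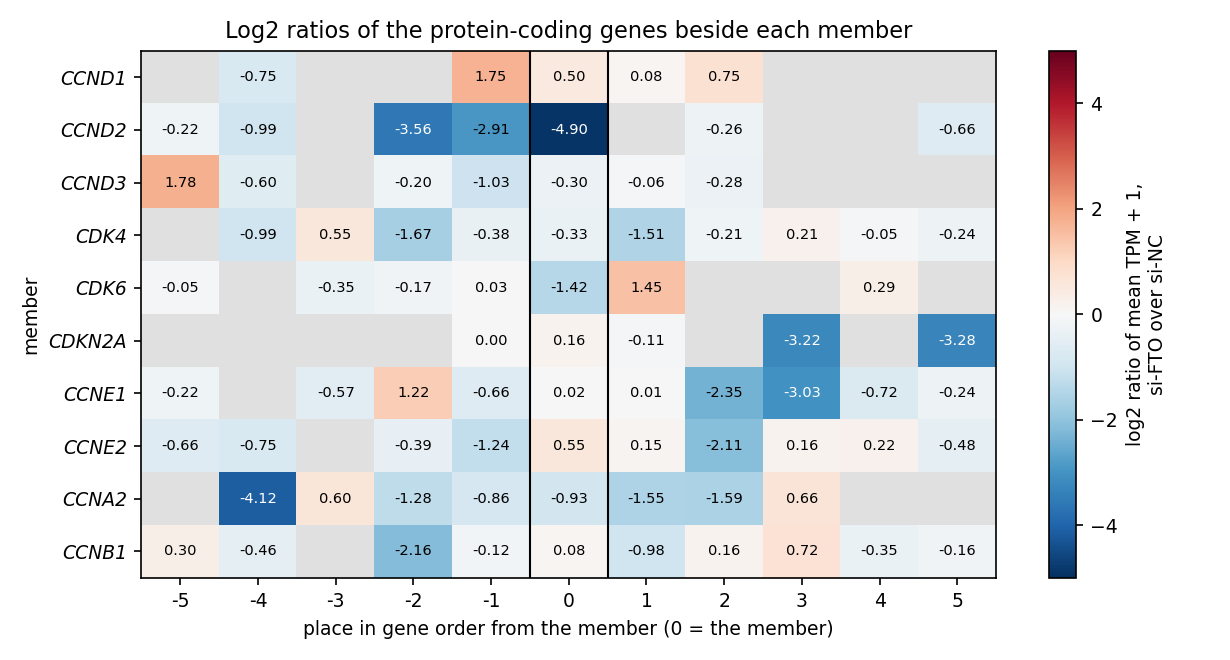
Log2 ratio of mean TPM + 1, si-FTO over si-NC, of each member (place 0) and of the 5 nearest protein-coding genes on each side, in gene order, with blue for lower and red for higher in si-FTO and grey for genes that were not compared. CDK6 at -1.42 sits among neighbours between -0.35 and 1.45, while CCND2 has PARP11 and CRACR2A, both listed at 0 in si-FTO and drawn with the pseudocount, directly to its left.

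The members' ratios were recomputed under other scalings and pseudocounts. For the 9 members with a value above 0 in both groups, 8 kept their sign under the 5 alternatives tried, and CCNB1 had a log2 ratio of 0.00 under quantile normalization, with no direction. CDK6 ranged from -1.55 to -1.23 and CCNA2 from -0.95 to -0.72, on opposite sides of the fold throughout. CCNB1 ranged from 0.00 to 0.29, CDKN2A from 0.06 to 0.37 and CCNE1 from 0.02 to 0.23, so their direction rests on small differences of means with unknown error. Of the list genes named, CCNC, CDK20, CDC25A and CDC45 were no longer past the fold under median-ratio scaling, and TFDP1 was. CDK20 and CDC25B were no longer past it under quantile normalization, at -0.79 and 0.97.

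**Figure D5:**
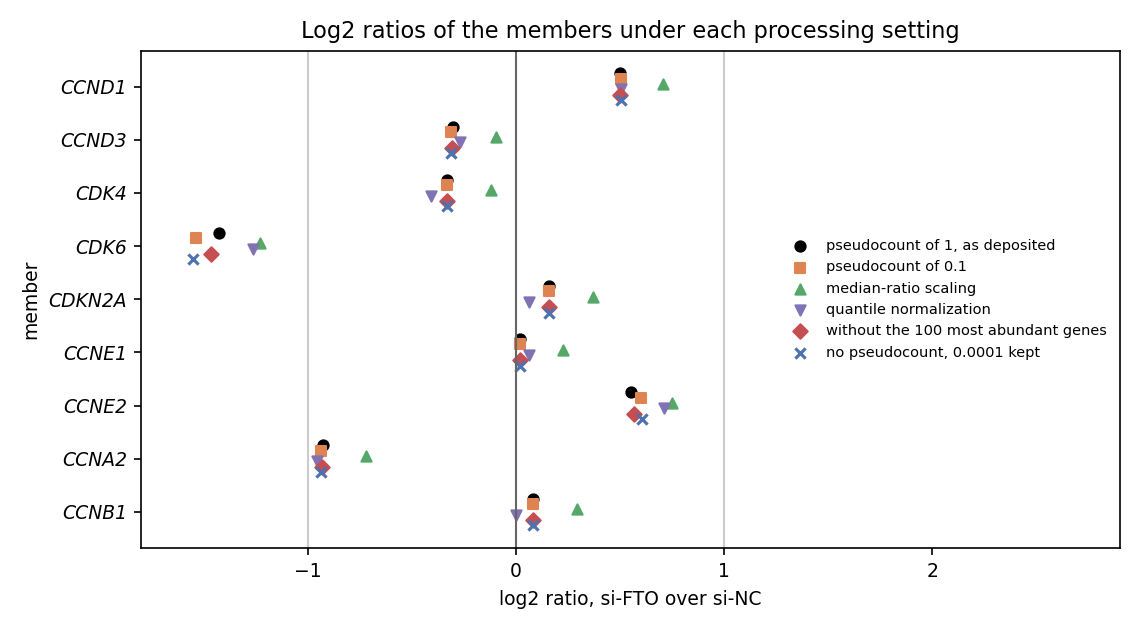
Log2 ratio, si-FTO over si-NC, of the 9 members with values above 0 in both groups under the main setting and 5 alternatives, with a dark line at 0 and grey lines at the fold threshold. Median-ratio scaling (triangles) sits to the right of the main value for each member, and CDK6 alone lies past the fold, between -1.55 and -1.23.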

How the data were processed

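The authors deposited a table of 58174 genes with TPM as 1 mean for si-NC and 1 for si-FTO. Per the labels, total RNA was prepared with a stranded kit; the processing notes name HISAT2 and hg19, while the study's methods name Bowtie and RSEM. The table also holds the authors' log2 fold change, p-value and q-value per gene, and a second table lists genes they called; none of these was used. Values of 0.0001 were read as 0. A limma fit over libraries was planned and group means do not allow it.

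The log2 ratio of mean TPM + 1 was computed for genes with at least 0.5 TPM in a group, and a size of at least 1 counted as past the fold. Between settings, a ratio counted as moved if it changed or lost its sign, crossed the fold or shifted by over 0.585, and a count if it changed over 1.5 times. Members and lists were chosen with earlier results of these data known. Genes named were the members and FTO; of each list those past the fold with at least 10 TPM, at most 3 in each direction, and its most abundant gene; and neighbours with at least 10 TPM in one group and under 1 in the other, with the nearest on each side. CDK1, CDK2, RB1, CDKN1B, the markers, and of the neighbours TSPAN9, TEAD4, C12orf4, TUSC1 and ELAVL2 fall outside this rule and were named after their values were seen. A gene covered by this rule is not reported here. Symbols matched 55726 identifiers. Positions come from GENCODE on GRCh37 and promoters from RefSeq on GRCh38.p14. Python 3.11.15, numpy 2.4.6 and pandas 2.3.3 were used. The fold calls were tried on simulated means with folds planted well past the threshold. That checks the code only and not the error between libraries.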

Additional observations from a re-analysis of the deposited data

How the results depend on the processing

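No paired analysis was possible because the values are group means with no replicate number, and for the same reason no library could be left out. The log2 ratios of FTO and of the 9 members above 0 in both groups kept their side of the fold with a pseudocount of 0.1, median-ratio scaling, quantile normalization, TPM rescaled without the 100 most abundant genes, and no pseudocount. They kept their direction, except that CCNB1 was at 0.00 under quantile normalization, where its rank was the same in both groups. No ratio of CCND2 is given, since it is listed at 0 in si-FTO. Members past the fold were 0 higher and 2 lower in each setting but 2: at a log2 ratio of at least 0.5, 1 was higher and 3 were lower, and at 2, 0 were higher and 1 was lower. Counts over all genes moved with the threshold, to 4326 higher and 7160 lower at 0.5 and to 976 and 1241 at 2; a minimum of 5 TPM, which compares fewer genes, left 2254 lower. Relative to the median gene, chosen after seeing the data, 52.3% of the genes past the fold were higher, against 40.1% as deposited. Over the 8 lists together, 14 of the 128 genes compared were higher and 13 lower, beside 11.4% and 17% of all 20493 genes compared. The list counts moved to 26 and 39 at 0.5 and to 4 and 3 at 2, beside the counts over all genes given above. The median over the lists, -0.08, became 0.13 under median-ratio scaling, which moved the median over all genes by 0.17. Depth and the error of each mean are unknown.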

Other observations

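Other genes of the AP-1 family and of early growth signals were read after the values of FOS and JUN were seen. JUNB went from 27.8 to 337 TPM, a log2 ratio of 3.55, and JUND from 68.0 to 162 TPM, a log2 ratio of 1.24. FOSB, FOSL1 and FOSL2, the other FOS family members, had log2 ratios of 1.46, 1.65 and 1.33. ATF3, a stress-induced factor that pairs with JUN proteins, went from 26.8 to 118 TPM. JUN was thus the exception in direction among the AP-1 genes read. IER2, an immediate-early gene, went from 23.8 to 70.7 TPM. Of the feedback regulators of the ERK pathway read, SPRY4 went from 0.131 to 1.78 TPM, a log2 ratio of 1.30, DUSP6 was at 0.397 and 1.20 TPM, and SPRY2 at 21.8 and 12.4 TPM. HBEGF, a ligand of EGFR, went from 6.59 to 2.13 TPM, and AREG from 0.252 to 1.76 TPM.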
